A study of Mus musculus with 8 samples.

Results

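The mechanosensitive ion channel genes described here are Piezo1, Piezo2, Trpc1, Trpc6, Trpm4, Trpm7, Trpv2, Pkd2 and Kcnk2. They were taken by symbol from the table of coding genes, where all 9 matched 1 Ensembl gene each among 29844 rows. RNA sequencing measured them in embryonic cardiomyocytes from E18.5 mouse hearts, kept for 4 days on silicone rubber (polydimethylsiloxane). The stiff group (4 libraries) grew at about 150 kPa and the soft group (4 libraries) at about 10 kPa. Embryos of all 8 libraries were B6.Cg-Tg(HIST1H2BB/EGFP)1Pa/J mice, so cells of both groups carry a green fluorescent histone transgene. Hearts were digested to single cells, the labels name no purification of cardiomyocytes, and cultures were confluent and beating. Since no label ties the 4 libraries of a substrate to separate litters or cultures, a p-value here reflects library-to-library spread that may be technical.

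Mechanosensitive channels turn membrane tension or cytoskeletal pull into ion currents. Piezo proteins form large trimeric cation channels that open directly on membrane stretch, whereas many transient receptor potential (TRP) channels respond to stretch together with lipids, calcium or receptor signals. In heart muscle the cation channels let in calcium or sodium and depolarise the cell, and the stretch-activated potassium channel TREK-1, encoded by Kcnk2, draws the membrane back towards rest.

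Total counts per library ran from 27646471 to 34693673. The 16 cardiomyocyte markers were all detected, led by the atrial peptide gene Nppa (6013 ± 938 CPM on stiff and 5588 ± 1498 CPM on soft, SD, n = 4 each) and the cardiac actin gene Actc1 (5408 ± 1620 CPM on stiff and 5862 ± 3148 CPM on soft). CPM are read counts relative to library size, with library sizes scaled by TMM (trimmed mean of M values). Soft library 4 stood apart, with 48551 CPM summed over these markers where soft 1 to 3 had 26583 to 28786 CPM. Transcripts listed as markers of other heart cells were present as well. The summed level was 10342 ± 2164 CPM on stiff and 11921 ± 3418 CPM on soft for 14 fibroblast markers (highest Col1a2 and Col3a1), and 2928 ± 506 CPM on stiff and 3338 ± 667 CPM on soft for 11 mural markers (highest Acta2 and Tagln). It was 807 ± 116 CPM on stiff and 891 ± 216 CPM on soft for 9 epicardial markers (highest Krt18 and Msln), and 314 ± 72.9 CPM on stiff and 297 ± 47.1 CPM on soft for 14 endothelial markers (highest Flt1 and Emcn). Leukocyte markers (14, highest Lyz2 and Csf1r) summed to 154 ± 26.7 CPM on stiff and 155 ± 24.0 CPM on soft, and nerve-associated markers (10, highest Tubb3 and Erbb3) to 46.3 ± 9.30 CPM on stiff and 41.4 ± 23.1 CPM on soft. Cldn5 of the endothelial list was at 0 counts. Most of the mural sum came from Acta2 (1442 ± 291 CPM on stiff and 1701 ± 435 CPM on soft) and Tagln (791 ± 228 CPM on stiff and 886 ± 178 CPM on soft). Means of the remaining mural markers over the 8 libraries ran from 239 CPM (Mcam) down to 0.83 CPM (Kcnj8). Which cells made Acta2 and Tagln was not tested. None of the 7 marker sums passed a two-sided exact permutation test between substrates (lowest p = 0.429, adjusted p = 1).

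Promoters are shown for 4 of the genes because transcription factors that are known to follow substrate stiffness bind short DNA motifs. These are serum response factor (SRF), which binds the CArG box, and the TEAD partners of YAP, which bind the MCAT element (CATTCC). RefSeq windows on GRCm38.p6 were searched for 7 of the 9 genes, with 12 annotated starts in all and the 250 bases before each. Trpm4 had no such window, and Piezo2 was left out of the search, so its promoter is not described. Capitals mark the CArG box in Trpc6, the MCAT element in Pkd2 and a TATA box (TATAAA) in Piezo1, and Trpc1 is shown because it is described further down.
Trpc6 (chr9:8543892-8544141, + strand): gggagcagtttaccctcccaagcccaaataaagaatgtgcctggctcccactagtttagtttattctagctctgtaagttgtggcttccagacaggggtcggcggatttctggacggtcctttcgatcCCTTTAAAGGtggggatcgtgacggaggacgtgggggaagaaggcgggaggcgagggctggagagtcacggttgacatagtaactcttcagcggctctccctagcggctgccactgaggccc
Pkd2 (chr5:104459207-104459456, + strand): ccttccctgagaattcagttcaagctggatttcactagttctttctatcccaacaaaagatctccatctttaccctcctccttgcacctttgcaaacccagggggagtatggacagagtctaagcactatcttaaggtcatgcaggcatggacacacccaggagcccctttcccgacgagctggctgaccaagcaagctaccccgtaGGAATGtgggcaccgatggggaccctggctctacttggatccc
Piezo1 (chr8:122551330-122551579, - strand): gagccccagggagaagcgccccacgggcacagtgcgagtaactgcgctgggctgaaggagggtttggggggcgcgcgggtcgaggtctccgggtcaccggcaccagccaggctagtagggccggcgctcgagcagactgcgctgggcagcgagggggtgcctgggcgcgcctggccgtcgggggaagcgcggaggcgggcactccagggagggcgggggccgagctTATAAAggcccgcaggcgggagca
Trpc1 (chr9:95750349-95750598, - strand): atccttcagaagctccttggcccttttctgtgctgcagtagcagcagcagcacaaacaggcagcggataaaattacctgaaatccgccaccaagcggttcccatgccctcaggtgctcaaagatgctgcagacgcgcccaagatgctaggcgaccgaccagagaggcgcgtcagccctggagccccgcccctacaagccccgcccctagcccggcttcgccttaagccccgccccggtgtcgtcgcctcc
The CArG box of Trpc6 began at position -122 from the start, and 1.47% of 32851 mouse promoter windows held one on either strand. An MCAT element, printed as GGAATG because it reads on the opposite strand, lay at position -43 from the Pkd2 start of this window. That start is internal, well within the printed span of Pkd2, and the Trpc6 and Trpc1 starts also lie inside their spans, close to the ends. Other MCAT elements began at -89 in 1 of 4 Kcnk2 windows and at -188 in 1 of 3 Trpv2 windows, and 12.6% of all windows held one on either strand. The TATA box of Piezo1 began at position -24 on the gene strand, as found anywhere in 7.59% of windows. None of the 3 motifs was in the windows of Trpc1 and Trpm7, which says only that these letters are absent there.

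All 9 channel genes were transcribed on both substrates, and none was called different between them. edgeR called 0 of 9 at an adjusted p under 0.05, where 0% of the 14059 tested coding genes were called, and the adjusted p was 0.99997 for each of the 9. DESeq2 and limma-voom also called 0 genes. At an unadjusted edgeR p under 0.05 there were 0 of 9 channel genes, against 0.925% of tested genes (130). DESeq2 had 177 such genes and limma-voom 181, again with 0 channel genes. The edgeR share is below what a threshold of 0.05 gives on average when no gene differs. Genes measured in the same 8 libraries are not independent, so the share alone does not show that the p-values ran conservative. They may have done so, which was not tested, and the lack of calls is weak evidence of equal levels. The stiff and soft libraries overlapped for all 9, against 1.29% of tested genes in which they did not. For all 9 genes, the widest gap between libraries of 1 substrate was larger than the gap between the substrate means. A range over single libraries tends to exceed a difference of means, and the share over all tested genes was not counted. The median log2 fold change, stiff over soft, was -0.08 over the 9 genes and -0.01 over all tested genes.

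**Figure D1:**
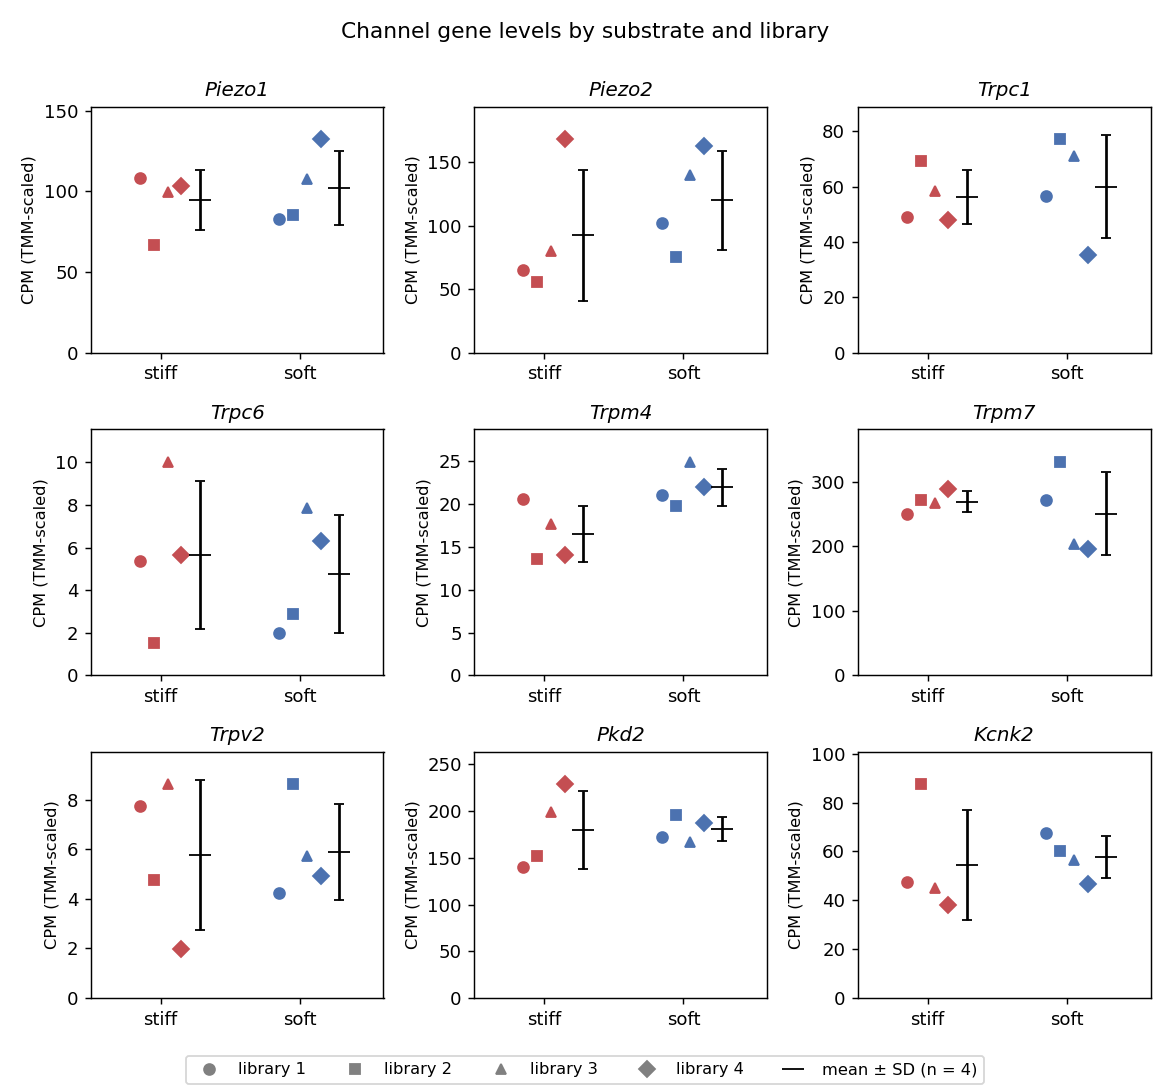
Level of each channel gene in TMM-scaled CPM (vertical axes, starting at 0) in the 4 stiff (red) and 4 soft (blue) libraries, with the mean and SD of each substrate beside the points; marker shapes give the library number. The substrates overlap in every panel, and the points of Piezo2, Trpc6 and Trpv2 are the most widely scattered for their level.

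The Piezo genes were both well detected. Piezo1 (ENSMUSG00000014444, chromosome 8 from 122481698 to 122551329 on GRCm38) had 108, 67.0, 99.4 and 104 CPM in stiff libraries 1 to 4, against 83.0, 85.3, 107 and 133 CPM in soft libraries 1 to 4. Stiff 2 was the lowest and soft 4 the highest of the 8. The means were 94.6 ± 18.7 CPM on stiff and 102 ± 23.1 CPM on soft (SD, n = 4 each), and the log2 fold change was -0.11 (standard error, SE, 0.20).

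Piezo2 (ENSMUSG00000041482, chromosome 18 from 63010213 to 63387716), best known as the touch and proprioception channel of sensory neurons, had read counts close to those of Piezo1. It had 64.9, 55.9, 80.1 and 168 CPM in stiff libraries 1 to 4, and 102, 74.9, 139 and 163 CPM in soft libraries 1 to 4. Stiff 4 was the highest of all libraries, whereas stiff 1 and stiff 2 lay below every soft library. The log2 fold change was -0.38 (SE 0.34), with an unadjusted edgeR p of 0.292. Without stiff 4 it was -0.84, with an unadjusted p of 0.00419 and an adjusted p of 0.99998. Without soft 4 it was -0.19, and without stiff 2 it was -0.20. There were 0.60 to 1.62 Piezo2 counts per Piezo1 count in stiff libraries, and 0.878 to 1.30 in soft libraries. The lowest and the highest ratio were both on stiff (stiff 1 and stiff 4), a 2.71-fold range.

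Both canonical TRP channel genes lie on chromosome 9 (Trpc1 from 95705072 to 95750386, Trpc6 from 8543867 to 8680752). Trpc1 (ENSMUSG00000032839), a subunit of mixed channels that are tied to store-operated calcium entry, had 49.0, 69.2, 58.5 and 48.0 CPM in stiff libraries 1 to 4, and 56.5, 77.3, 71.1 and 35.2 CPM in soft libraries 1 to 4. Soft 4 was the lowest and soft 2 the highest, so the soft range enclosed the stiff one. Its log2 fold change was -0.09 (SE 0.24).

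Trpc6 (ENSMUSG00000031997), a diacylglycerol-gated calcium channel known from calcineurin signalling in cardiac hypertrophy, was far less often sequenced. Its counts were 152, 45, 335 and 193 in stiff libraries 1 to 4 and 60, 82, 221 and 191 in soft libraries 1 to 4. In CPM it averaged 5.64 ± 3.48 on stiff and 4.76 ± 2.78 on soft. Trpc6 had the widest spread of the 9 genes, a 6.56-fold difference between stiff 3 (highest) and stiff 2 (lowest). The log2 fold change was 0.25 (SE 0.60). There were 0.0221 (stiff 2) to 0.172 (stiff 3) Trpc6 counts per Trpc1 count in stiff libraries, and 0.0350 (soft 1) to 0.179 (soft 4) in soft libraries.

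The melastatin-type channels differed in spread. Trpm7 (ENSMUSG00000027365, chromosome 2 from 126791558 to 126876261) encodes a channel fused to a kinase that passes magnesium, zinc and calcium, and it took the most reads of the 9 genes. Levels of 249.7, 272, 266 and 288 CPM in stiff libraries 1 to 4 stood against 273, 331, 204 and 195 CPM in soft libraries 1 to 4. The 4 stiff values were close together (coefficient of variation 5.95%), whereas soft 3 and soft 4 lay below and soft 2 above all of them (25.5%). The log2 fold change of Trpm7 was 0.10 (SE 0.19).

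Trpm4 (ENSMUSG00000038260, chromosome 7 from 45303155 to 45334071) encodes a calcium-activated channel for monovalent cations that is linked to cardiac conduction disease in humans. Its levels were 20.6, 13.6, 17.7 and 14.05 CPM in stiff libraries 1 to 4, and 21.1, 19.8, 24.97 and 21.9 CPM in soft libraries 1 to 4. Apart from stiff 1, the stiff libraries lay below all soft ones. Trpm4 averaged 16.5 ± 3.29 CPM on stiff and 21.9 ± 2.20 CPM on soft (SD, n = 4 each), and its log2 fold change was -0.41 (SE 0.26). Its unadjusted edgeR p of 0.124 was 585th among the 14059 tested genes, which does not pass. With each library left out in turn, the estimate stayed between -0.54 and -0.33. Per Trpm7 count there were 0.0487 to 0.0825 Trpm4 counts in stiff libraries and 0.0597 to 0.122 in soft libraries.

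Trpv2 (ENSMUSG00000018507, chromosome 11 from 62574486 to 62600305), a cation channel that responds to stretch in mouse cardiomyocytes, had 220, 140, 287 and 67 counts in stiff libraries 1 to 4 and 129, 245, 161 and 149 counts in soft libraries 1 to 4. Stiff 4 was the lowest and stiff 3 reached the level of soft 2, the highest soft library, at 8.61 and 8.62 CPM. The mean level was 5.77 ± 3.03 CPM on stiff and 5.88 ± 1.93 CPM on soft, with a log2 fold change of -0.03 (SE 0.50).

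Pkd2 (ENSMUSG00000034462, chromosome 5 from 104453982 to 104505819) encodes polycystin-2, a calcium-permeable channel of primary cilia and the endoplasmic reticulum. It had 139.8, 152, 199 and 229 CPM in stiff libraries 1 to 4, against 172, 195, 167 and 187 CPM in soft libraries 1 to 4. Stiff 1 and 2 lay below and stiff 3 and 4 above the soft range, and the means nearly coincided at 179.8 ± 41.6 CPM on stiff and 181 ± 13.0 CPM on soft. The log2 fold change was -0.01 (SE 0.18). Its large partner Pkd1, polycystin-1, averaged 155 ± 30.1 CPM on stiff and 152 ± 14.6 CPM on soft, with 0.729 to 1.18 Pkd1 counts per Pkd2 count in stiff libraries and 0.759 to 0.917 in soft libraries.

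Kcnk2 (ENSMUSG00000037624, chromosome 1 from 189207930 to 189402782), the gene of the stretch-opened potassium channel TREK-1, had 47.4, 87.5, 44.8 and 38.1 CPM in stiff libraries 1 to 4, and 67.7, 60.2, 56.4 and 46.7 CPM in soft libraries 1 to 4. Stiff 2 was the highest library and the other stiff libraries lay below soft 1, 2 and 3. The log2 fold change of Kcnk2 was -0.08 (SE 0.25), and without stiff 2 it was -0.41 with an adjusted edgeR p of 0.9999.

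The precision differed between genes. For 6 genes (Piezo1, Trpc1, Trpm4, Trpm7, Pkd2 and Kcnk2) the unadjusted 95% interval left a 2-fold difference in either direction outside. The tightest of these were Pkd2, from 0.763-fold to 1.30-fold, and Trpm7, from 0.817-fold to 1.41-fold, stiff over soft. For 3 genes a 2-fold difference lay within the interval, which ran from 0.460-fold to 1.29-fold for Piezo2, from 0.493-fold to 2.86-fold for Trpc6 and from 0.471-fold to 2.05-fold for Trpv2. Read counts grow with transcript length and transcript lengths were not used here, so the CPM values do not order the channels by transcript number.

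**Figure D2:**
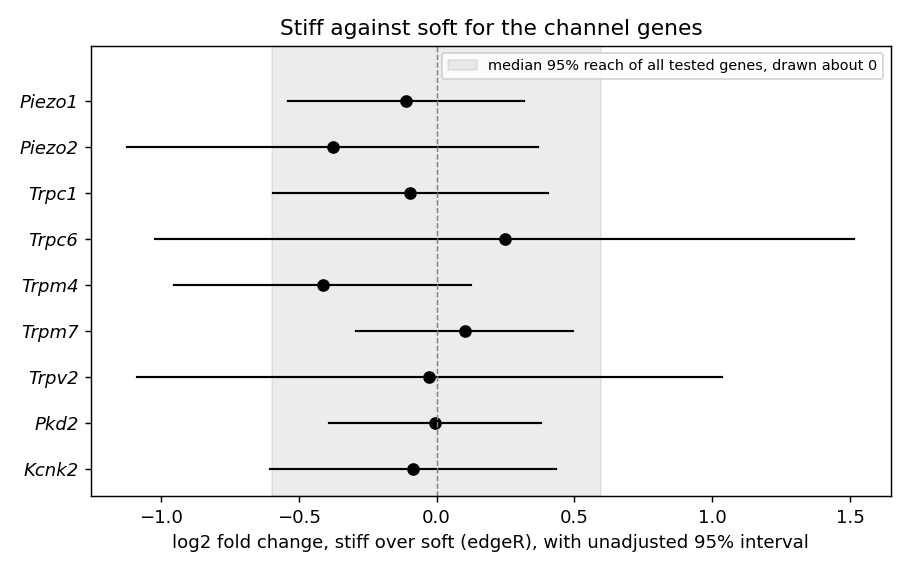
Log2 fold change of each channel gene, stiff over soft, from edgeR (points) with its unadjusted 95% interval (bars); the grey band, drawn about 0, is the median reach of that interval over all tested genes, 1.51-fold to either side. All 9 intervals include 0, and those of Piezo2, Trpc6 and Trpv2 are wider than the band.

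Single libraries departed from the mean of a gene in different directions for different channels, and likeness between channels was not tested. For the 7 genes with a mean of at least 10 CPM, the highest library held 1.64-fold (Pkd2) to 3.01-fold (Piezo2) the level of the lowest, against a median of 1.91-fold over 9850 tested genes above that mean. Trpc6 (6.56-fold) and Trpv2 (4.404-fold) lie below it and have no such background here. Relative to its own mean over the 8 libraries, soft 4 was high for Piezo1 (0.46 on the log2 scale) and Piezo2 (0.73), and low for Trpc1 (-0.68) and Trpm7 (-0.39). In stiff 2 the values were -0.53 for Piezo1, -0.81 for Piezo2 and -1.48 for Trpc6, against 0.69 for Kcnk2. Stiff 4 was high for Piezo2 (0.78) and low for Trpv2 (-1.42).

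**Figure D3:**
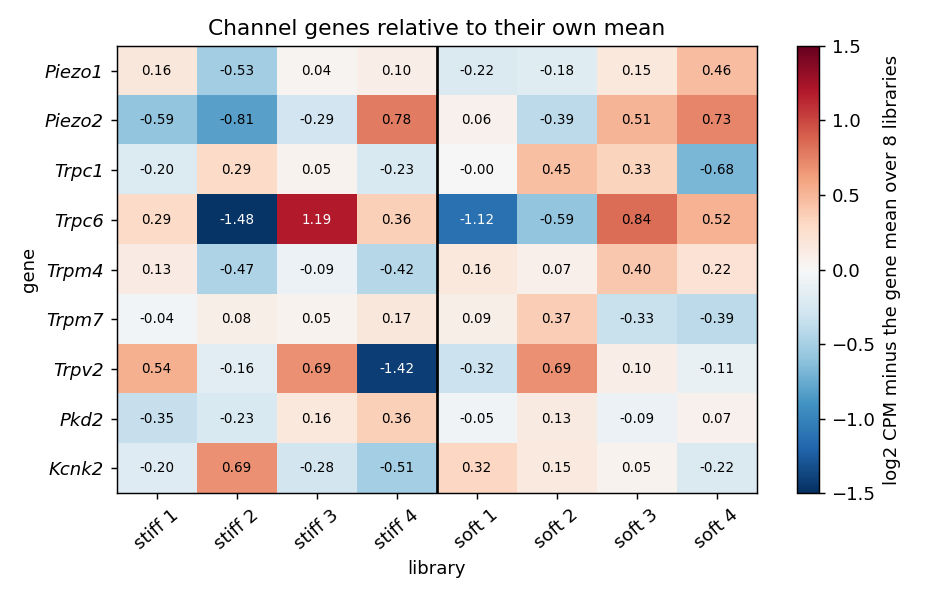
Each cell gives the log2 CPM of a channel gene (rows) in a library (columns, 4 stiff left of the line and 4 soft right of it) minus the mean of that gene over the 8 libraries; red is higher and blue lower. The extremes are -1.48 for Trpc6 in stiff 2 and -1.42 for Trpv2 in stiff 4, and no row is of 1 colour on each side of the line.

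Trpc1 was lower in libraries with more cardiomyocyte transcript. Over the 8 libraries its log2 CPM correlated with the log2 sum of the 16 cardiomyocyte markers at a Pearson r of -0.947 (exact permutation p = 7.44e-05, adjusted p = 0.00469) and a Spearman rho of -0.976 (exact permutation p = 3.97e-04, adjusted p = 0.0250). The marker sum in stiff libraries 1 to 4 was 33477, 28271, 30171 and 39956 CPM, and in soft libraries 1 to 4 it was 28786, 26583, 27274 and 48551 CPM. Soft 4, with the highest sum, had the lowest Trpc1 level (35.2 CPM), and soft 2, with the lowest sum, had the highest (77.3 CPM). Leaving out the libraries farthest from the median sum (stiff 4 and soft 4) gave r = -0.931 over 6 libraries (exact permutation p = 0.00417), and leaving out soft 4 alone gave r = -0.877 (exact permutation p = 0.00139). With the mean of each substrate removed, r was -0.947, and no r is given within a substrate, whose 4 libraries are fewer than the minimum of 6 used for a correlation. Within each substrate, library 4 had the highest sum and the lowest Trpc1 level, and library 2 the lowest sum and the highest Trpc1 level. The p-values treat the 8 libraries as independent, which the labels do not state. Over all tested genes, deviations of same-numbered libraries correlated at 0.181 for number 2 and 0.305 for number 4. The 2 substrates may therefore not be separate repeats of the relation, and its p-values may be too small. In bulk samples, fewer cells of a type and less RNA per cell cannot be told apart.

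This was 1 of 63 relations between the 9 channel genes and the 7 marker sums, a family chosen after the data were seen. No other relation passed the adjustment, and 7 of the 63, this one included, had an unadjusted exact permutation p under 0.05. Next by p were Piezo2 with the epicardial sum (r = 0.791, exact permutation p = 0.0143) and Pkd2 with the leukocyte sum (r = -0.803, exact permutation p = 0.0171). Both had an adjusted p of 0.347. Among single markers, 15 of 16 correlated negatively with Trpc1 over the 8 libraries, the most strongly Actn2 (r = -0.977), the Z-disc actinin gene, and Myh6 (r = -0.969), the alpha myosin gene. The weakest of the 15 were Ryr2 (r = -0.390), Ttn (r = -0.431) and Pln (r = -0.460). The beta myosin gene Myh7 went the other way (r = 0.576). These markers make up the sum, so their values are no separate support for the relation. Of 12819 tested genes with a count in every library, 22 others had an r with the marker sum at or below that of Trpc1. The libraries share their composition, since a CPM is a share of a total. With the 14 fibroblast markers, Trpc1 had a Pearson r of -0.289 (exact permutation p = 0.493, adjusted p = 0.740) and a Spearman rho of -0.10 (exact permutation p = 0.840). With the epicardial markers r was -0.776 (exact permutation p = 0.0233, adjusted p = 0.347) and rho -0.714 (exact permutation p = 0.0576). That relation rests on soft 2 and soft 4, without which r was -0.234. With the nerve-associated markers r was -0.598 (exact permutation p = 0.117, adjusted p = 0.347) and rho -0.548 (exact permutation p = 0.171). For the mural, endothelial and leukocyte sums r lay between -0.269 and 0.208, with exact permutation p of 0.519 or more.

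**Figure D4:**
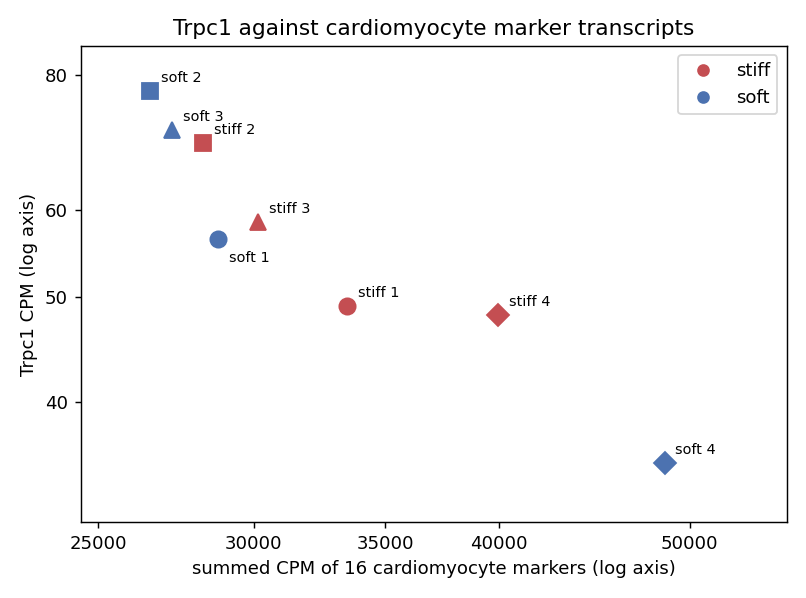
Trpc1 level (CPM, vertical log axis) against the summed level of 16 cardiomyocyte markers (CPM, horizontal log axis) in the 4 stiff (red) and 4 soft (blue) libraries, each labelled. The stiff libraries lie between soft 2 (77.3 CPM of Trpc1 at a sum of 26583 CPM) and soft 4 (35.2 CPM at a sum of 48551 CPM).

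The genes with the most similar profile over the 8 libraries were found by the root mean square difference of log2 CPM, each gene centred on its own mean. For Piezo1 they were Lrp1, a large endocytic receptor (0.08, against a spread of 0.28 for Piezo1 itself), and Dysf, the membrane repair protein dysferlin of muscle (0.09). Trpc1 was most like Plod2, a collagen lysyl hydroxylase (0.10, own spread 0.35), and Adamts12, a matrix protease (0.11). For Trpm4 they were Ube2v1, a ubiquitin-conjugating enzyme variant (0.07, own spread 0.29), and Hrc, a calcium-binding protein of the sarcoplasmic reticulum (0.13). Pkd2 lay closest to Supt16, a histone chaperone (0.05, own spread 0.21), and to Sap130 of the Sin3 co-repressor complex (0.08), and Trpm7 to Hook3 (0.07, own spread 0.24) and Otud4 (0.08). Kcnk2 was nearest to Rps27l (0.11, own spread 0.36) and Ube2d1 (0.13), and Piezo2 to the mitochondrial elongation factor gene Tsfm (0.18, own spread 0.58) and the chaperone gene Dnajb11 (0.20). Trpc6 (own spread 0.89) and Trpv2 (own spread 0.65) had no gene as close: the nearest were Fam57a (0.37) and Mpdu1 (0.39) for Trpc6, and Prkch (0.24) and Tmem106c (0.28) for Trpv2. The difference is not scaled to the spread of a gene, so widely spread genes tend to lie farther from any other. These likenesses rest on 8 libraries and carry no test.

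Of 20 other TRP genes, 5 had 0 counts in every library (Trpc2, Trpv3, Trpv5, Trpv6 and Trpa1), which allows at most 0.0876 to 0.107 CPM per library (3 counts, counting error only), and 7 passed the filter. Trpm3, a heat- and steroid-activated cation channel gene, was the best detected with 63.3 ± 14.04 CPM on stiff and 59.4 ± 11.5 CPM on soft, followed by the lysosomal channel gene Mcoln1 with 24.5 ± 2.96 CPM on stiff and 21.1 ± 5.24 CPM on soft. Trpm6, the kinase-bearing relative of Trpm7, had 39, 78, 19 and 55 counts in stiff libraries 1 to 4 and 0, 7, 76 and 21 counts in soft libraries 1 to 4. Called by edgeR were 0 higher and 0 lower on stiff, and the median log2 fold change of the 7 was 0.09.

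Of 7 other polycystin genes 3 were tested, with 0 called and a median log2 fold change of 0.03. Log2 fold changes were 0.32 (SE 0.56) for Pkd2l2, -0.31 (SE 1.27) for Pkdrej and 0.03 (SE 0.18) for Pkd1.

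Among 13 other two-pore potassium channel genes, 6 had 0 counts in every library (Kcnk7, Kcnk9, Kcnk12, Kcnk15, Kcnk16 and Kcnk18) and 5 were tested. Kcnk4 and Kcnk10, which encode the other stretch-activated members TRAAK and TREK-2, did not pass the filter. Kcnk4 had at most 9 counts and Kcnk10 at most 28 counts in a library, against 1303 to 2572 counts of Kcnk2 on stiff and 1416 to 2055 counts on soft. Kcnk6 averaged 8.49 ± 2.39 CPM on stiff and 7.53 ± 1.79 CPM on soft, and the acid-sensitive TASK-1 gene Kcnk3 3.94 ± 2.24 CPM on stiff and 4.76 ± 3.80 CPM on soft. Kcnk13 had 10, 0, 0 and 15 counts in stiff libraries 1 to 4 and 0, 91, 38 and 25 counts in soft libraries 1 to 4, and for Kcnk5 the log2 fold change was 0.61 (SE 0.82). None of the 5 was called, and their median was 0.17.

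The list of 24 other force- or swelling-linked channel genes had 17 tested members and 0 calls, with a median log2 fold change of 0.09. Lrrc8c, a subunit of the volume-regulated anion channel, stood at 109.95 ± 9.09 CPM on stiff and 96.6 ± 4.42 CPM on soft (log2 fold change 0.19, SE 0.16), and Lrrc8d of the same channel at 14.5 ± 2.94 CPM on stiff and 11.5 ± 4.09 CPM on soft. The chloride transporter gene Clcn3 averaged 133 ± 19.4 CPM on stiff and 125 ± 16.7 CPM on soft. Kcnma1, the large-conductance calcium-activated potassium channel gene, had 118, 154, 87 and 56 counts in stiff libraries 1 to 4 and 0, 21, 84 and 22 counts in soft libraries 1 to 4.

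Channel partners (17 genes, 16 tested) had 0 calls and a median of 0.06. Mdfi, one of the MyoD family inhibitors that bind Piezo channels, stood at 0.63 on the log2 fold scale (SE 0.55), the scaffold gene Homer2 at 0.36 (SE 0.24). The caveolar genes Cav1 and Cavin1 were the most abundant, at 443 ± 75.7 CPM on stiff and 418 ± 61.2 CPM on soft for Cav1 and 344 ± 52.6 CPM on stiff and 366 ± 114 CPM on soft for Cavin1. The store calcium release channel gene Itpr1 averaged 315 ± 51.1 CPM on stiff and 282 ± 46.3 CPM on soft.

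Of 22 genes that respond to or clear calcium, all tested, 0 were called, with a median of -0.02. The lowest unadjusted p values were those of Nfatc4 (0.0976), Nfatc1 (0.111) and Camk2b (0.136) by edgeR, each with an adjusted p of 0.99997. Nfatc4 had 17.1 to 26.7 CPM on stiff and 24.8 to 42.3 CPM on soft, whereas Nfatc1, another calcineurin-driven factor, had 16.4 to 19.4 CPM on stiff and 11.3 to 16.6 CPM on soft. The kinase gene Camk2b averaged 4.71 ± 1.94 CPM on stiff and 8.0 ± 4.20 CPM on soft. The sodium-calcium exchanger gene Slc8a1 led the list at 925 ± 128 CPM on stiff and 898 ± 39.1 CPM on soft, ahead of Camk2d at 433 ± 63.8 CPM on stiff and 446 ± 54.5 CPM on soft.

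**Figure D5:**
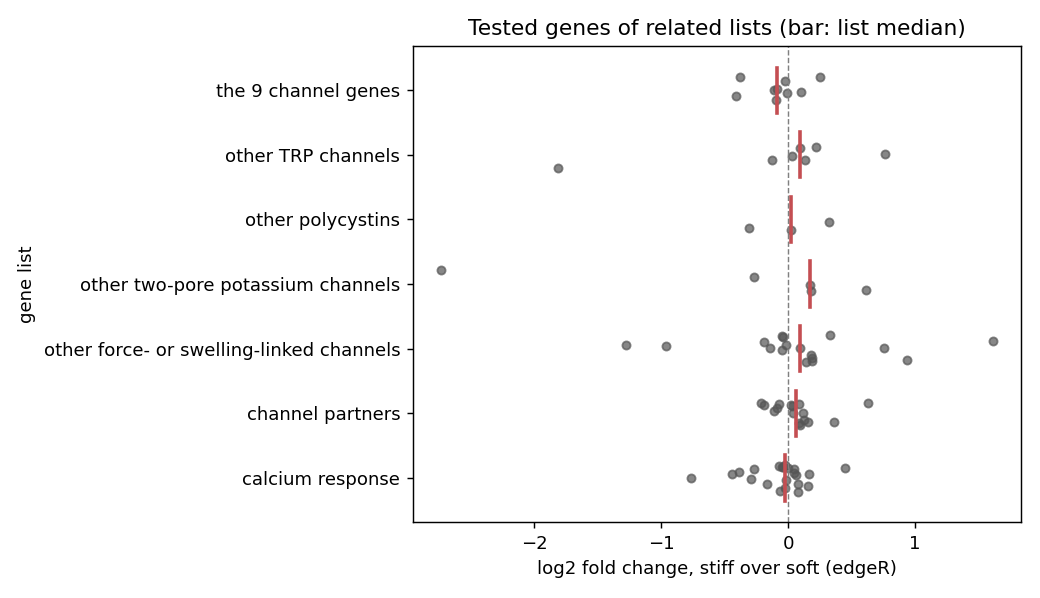
Log2 fold change, stiff over soft, of every tested gene (points) in the 9 channel genes and 6 related lists (rows), with the list median as a red bar. Medians lie between -0.08 and 0.17, and the points farthest from 0 belong to genes with libraries at 0 counts, such as Kcnk13.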

How the data were processed

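RNA was sequenced in 4 stiff and 4 soft libraries. The authors deposited a table of raw counts for coding genes, whole reads that have not been normalized; a noncoding table was not used here. The tools in the submitters' processing notes are HTSeq 0.6.1, TopHat2 2.0.14, FastQC 0.11.2, Bowtie2, Cufflinks, TopHat, edgeR and DESeq2, on GRCm38, with no roles. Whether counting used strand is not stated in them, so reads of genes that overlap cannot be told apart: RefSeq places Ctu2 across part of Piezo1, and noncoding genes or pseudogenes within the spans of Piezo1, Piezo2, Trpc1, Trpc6, Trpm4 and Kcnk2. Of 29844 coding IDs, 29150 matched a symbol.

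The test was robust quasi-likelihood in edgeR 4.0.16 (R 4.3.3) of stiff against soft over all libraries, with filterByExpr (minimum count 10, total 15), TMM factors and Benjamini-Hochberg adjustment over 14059 genes (calls under 0.05). Centred log2 CPM used a prior count of 2; correlations and marker sums used none, with two-sided exact permutation tests (smallest p 0.0286 for 4 against 4). DESeq2 1.42.0, limma-voom (limma 3.58.1), other scalings and filters, a replicate block and each library left out were alternatives. No libraries agreed within sampling noise (chi-square per degree of freedom 45.8 to 237).

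The channel genes and all gene lists were chosen with earlier results of these data known. The text names all channel genes, for each related list at most 3 genes of lowest p and 2 of highest mean CPM, for each cell type its 2 highest markers, and 2 nearest profiles per channel gene (genes of at least 10 CPM). Genes at 0 counts, Kcnk4, Kcnk10, Mcam, Kcnj8 and single markers beside Trpc1 were named after their values were seen. A gene that this rule would name is not reported here. Levels per length were planned and not made, since no transcript lengths were used. Counting limits treat reads as independent molecules.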

Additional observations from a re-analysis of the deposited data

Results flagged for a closer look

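Among 80 groups of 4 libraries, 4 held a library far from the other 3 by Dixon's criterion, and chance gives about 1 in 20 groups. The cardiomyocyte marker sum was 48551 CPM in soft 4, where soft 1 to 3 had 26583 to 28786 CPM. Leukocyte markers summed to 191 CPM in soft 1, where soft 2 to 4 had 139.7 to 146 CPM. Kcnk3 stood at 10.4 CPM in soft 4, where soft 1 to 3 had 2.30 to 3.63 CPM. Nfatc4 stood at 17.1 CPM in stiff 4, against 25.2 to 26.7 CPM in the other stiff libraries. None of the 9 channel genes was among them.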

How the results depend on the processing

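No channel gene was called under any of the 16 alternatives, and 0 coding genes were called under 15 of them. The exception was limma-voom with the library number as a replicate block, which called 8 coding genes, none a channel gene. The numbers come from sample order and pair nothing by the labels; deviations of same-numbered libraries correlated at 0.104, 0.181, 0.128 and 0.305, and 6 of 8 libraries correlated best with their own number, a hint from the data and not the design. With that replicate block the log2 fold change of Piezo2 was -0.46 by edgeR (unadjusted p = 0.00790, adjusted p = 1) and -0.43 by limma-voom (unadjusted p = 0.00926, adjusted p = 0.99991). Counts at an unadjusted p under 0.05 were 130 as reported, 360 and 432 with the block in edgeR and limma-voom, 473 without a filter, and 122 to 272 with 1 library left out.

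Small estimates changed sign. That of Pkd2 was 0.0032 with RLE factors, 0.00036 with library totals and 0.0033 with DESeq2. With each library left out in turn, log2 fold changes ran from -0.20 to 0.048 for Piezo1, -0.27 to 0.057 for Trpc1, -0.19 to 0.60 for Trpc6, -0.29 to 0.26 for Trpv2, -0.14 to 0.10 for Pkd2, -0.41 to 0.053 for Kcnk2, -0.14 to 0.52 for Pkd2l2, -0.71 to 0.27 for Pkdrej and -0.046 to 0.16 for Pkd1. Piezo2 (-0.84 to -0.19), Trpm4 and Trpm7 (0.0044 to 0.27) kept their sign throughout. Marker sum differences, stiff minus soft, ran from -2158 to 5421 CPM for cardiomyocytes, -15.3 to 37.1 CPM for endothelium, -9.80 to 10.2 CPM for leukocytes, -150.2 to 18.8 CPM for epicardium and -1.75 to 14.8 CPM for nerve-associated cells. The r of Trpc1 with cardiomyocyte markers ran from -0.970 to -0.877. The alternative gene length, and levels per length, were not run because no length was used.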
